A study of Sus scrofa with 6 samples.

Results

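The genes of IL-33 and IL-6 family signaling were examined in the pressure-overloaded ventricle of the minipig. The members were 10 genes taken by symbol: the ligands IL33 and IL6, the receptors IL1RL1, IL6R, IL6ST, LIFR and OSMR, the kinase JAK1, the transcription factor STAT3 and the inhibitor SOCS3. Of these, 9 were among the 13288 genes of the deposited table, and IL1RL1 was not. RNA had been sequenced from ventricular tissue of male Tibetan minipigs, one library per animal, with 3 animals in the sham group (replicates 1 to 3, opened at the chest but not constricted) and 3 in the DAC group (replicates 4 to 6). DAC stands for descending aortic constriction, in which sutures narrowed the aorta below the arch, and the hearts were collected at week 12. The animals carried no transgene. All were anesthetized for the operation, the use of penicillin after it is stated, and their age was not given in the sources used here. The values are FPKM, the fragments of a gene scaled to its transcript length and to the mapped fragments of the library, so levels of different genes can be set side by side. The number of fragments behind a value is unknown, and the error is therefore the spread between minipigs.

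IL-33 is an alarmin kept in the nucleus of stromal and barrier cells and released when they are damaged. It binds ST2, the product of IL1RL1, which pairs with IL1RAP and signals through MYD88, IRAK kinases and TRAF6. In the heart, fibroblasts are a known source of IL-33, and the soluble form of ST2 is a serum marker of heart failure. Cytokines of the IL-6 family share the receptor chain gp130, the product of IL6ST. IL-6 reaches gp130 through IL6R, and LIF, oncostatin M and cardiotrophin-1 reach it through LIFR or OSMR. JAK1 then phosphorylates STAT3, which enters the nucleus and induces SOCS3, and SOCS3 binds gp130 and blocks the kinases. The measurements here are of transcripts, so they hold neither the release of IL-33 nor the phosphorylation of STAT3.

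Between the groups, IL33 and LIFR had higher transcript levels in the DAC myocardium at an unadjusted P under 0.05, the threshold of the study. The level of IL33 in the DAC group was 2.06 times that in the sham group, and the level of LIFR was 1.34 times. JAK1, STAT3 and OSMR had group means within a few percent of each other, while SOCS3, IL6ST and IL6R varied widely among the DAC animals. IL6 was near the lower end of the table in both groups. Of the 11029 genes tested, 3.25% were called higher in the DAC group and 5.27% lower. That split depended on the scaling, with 429 genes called higher and 479 lower when sample medians were made equal, and 500 higher and 407 lower when mitochondrial genes were dropped before rescaling. Among the 8 members that passed the filter, 2 were called higher and 0 lower. IL33 passed the filter on low values only through the DAC animals, so this count carries no weight as support. No member and no other gene of the table reached an adjusted P under 0.05 (limma with Benjamini-Hochberg adjustment over all genes tested, 939 genes at an unadjusted P under 0.05).

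**Figure D1:**
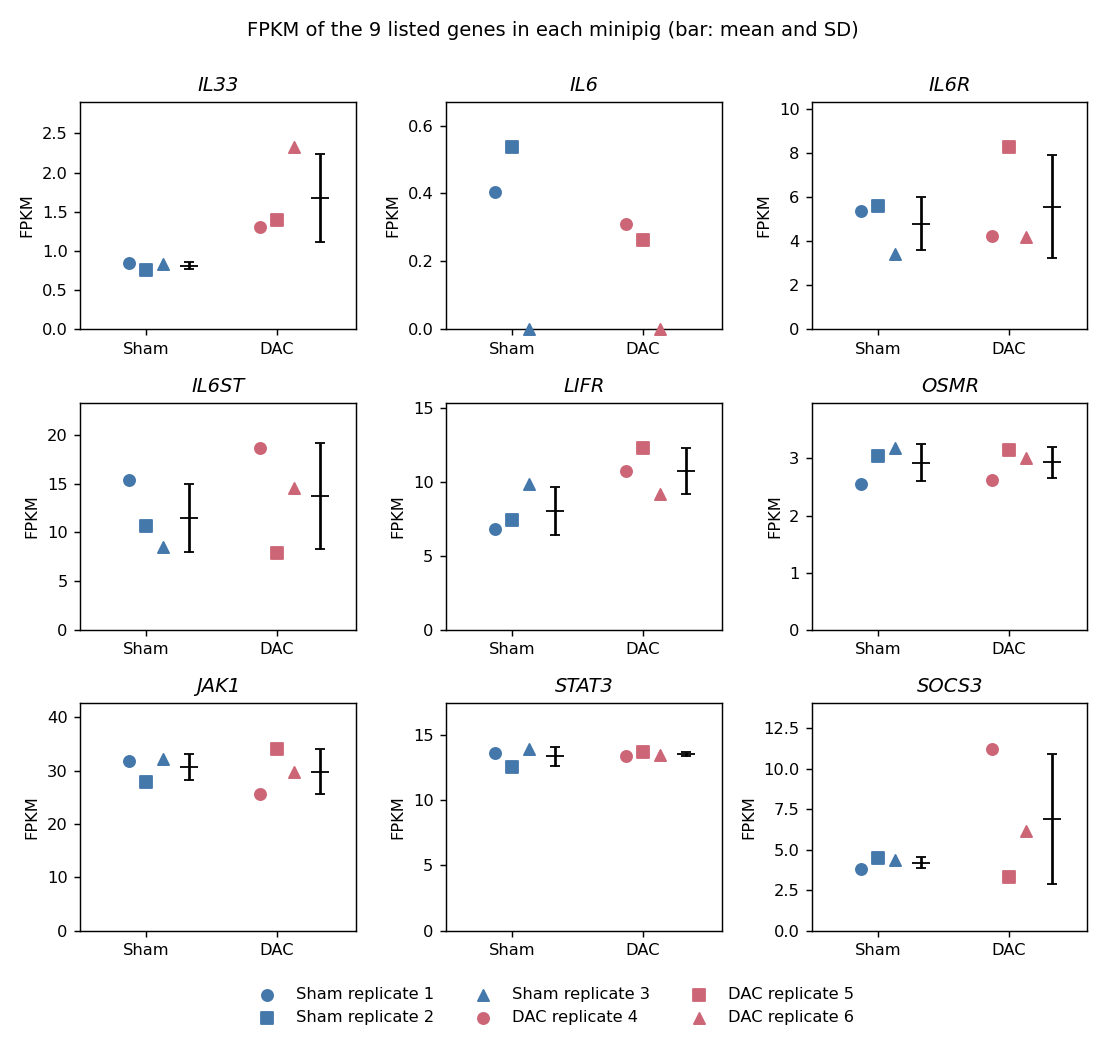
FPKM (vertical axes, each starting at 0) of the 9 listed genes in the 3 sham (blue) and 3 DAC (red) minipigs, one symbol per animal, with the group mean and SD as black bars except for IL6, which is listed at 0 in 2 animals. IL33 is the panel in which every DAC animal lies above every sham animal, STAT3 lies between 12.6 and 13.9 in all 6 animals, and SOCS3 is highest in DAC replicate 4 at 11.2.

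The heart libraries carried the transcripts of cardiomyocytes, and the 8 listed cardiomyocyte markers of 9 summed to between 13924 and 14737 FPKM in the sham group and between 13282 and 16319 FPKM in the DAC group. The 8 fibroblast markers of 8 summed to between 532 and 617 FPKM in the sham group and between 743 and 847 FPKM in the DAC group, so the groups did not overlap. The sums of 9 of 9 endothelial markers (128 to 185 FPKM in sham, 122 to 175 in DAC), of 8 of 8 smooth muscle and pericyte markers (156 to 190 and 176 to 207) and of 10 of 12 leukocyte markers (69.5 to 81.6 and 59.7 to 91.8) did overlap. Single markers moved within these sums, and 8.51% of all genes tested were called. Of the endothelial markers 4 were called, CLDN5 (-1.22) and VWF (-0.49) lower and KDR (0.60) and EMCN (0.39) higher (limma, smallest adjusted P = 0.482), and of the leukocyte markers CD163 was called lower (-0.43, adjusted P = 0.508). RYR2 among the cardiomyocyte markers (-0.41) was called lower and CNN1 among the smooth muscle markers (0.60) higher. The part of these cell types in the members' differences was not tested. Of 8 mast cell markers 4 were listed, with sums from 18.8 to 28.5 FPKM in sham and from 13.3 to 22.2 in DAC. The largest part of these sums was GATA2 (7.21 to 20.3 FPKM over the 6 animals). MS4A2 (3.42 to 5.99 FPKM), FCER1A (1.32 to 2.27 FPKM) and KIT were listed too, while CPA3, HDC, TPSB2 and SLC18A2 were not. None of 6 eosinophil markers and 1 of 6 neutrophil markers (CSF3R, 0.328 to 0.975 and 0.827 to 2.15 FPKM) were listed. Red blood cells (2 of 5 listed, 11.2 to 38.5 and 5.86 to 38.2 FPKM) and adipocytes (3 of 5, 4.73 to 12.7 and 10.1 to 20.7) had wide sums, and WT1, the 1 of 5 mesothelial markers listed, was called lower, at 4.76 to 11.4 in sham and 2.36 to 4.30 in DAC. Mitochondrially encoded genes held 32.8% of the summed FPKM in DAC replicate 5, 27.1% and 27.2% in the other DAC animals and 24.0% to 25.3% in the sham animals. In bulk tissue, fewer cells of a type and less RNA per cell cannot be told apart.

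IL33 (ENSSSCG00000005203, build susScr11, chromosome 1 from 215899435 to 215941840, minus strand) was at 0.844, 0.759 and 0.830 FPKM in sham replicates 1 to 3. In the DAC group it was at 1.30, 1.40 and 2.32 FPKM in replicates 4 to 6. The sham animals lay close together, all DAC animals lay above them, and DAC replicate 6 stood highest. The group means were 0.811 ± 0.0452 FPKM (SD, n = 3) and 1.67 ± 0.565 FPKM (SD, n = 3). On the scale of log2(FPKM + 1), which understates the change of a gene at this level, IL33 rose by 0.54 (standard error 0.16, 95% confidence interval 0.16 to 0.92, limma, adjusted P = 0.508). The exact two-sided permutation test gave P = 0.1, the smallest that 3 animals against 3 allow. Groups that do not overlap with DAC higher were seen in 6.01% of the genes tested. Without DAC replicate 6 the difference was 0.37 (limma, adjusted P = 0.503), and IL33 kept an unadjusted P under 0.05 under every alternative in which it was tested. These alternatives reuse the same animals, and IL33 passed the filter only through the DAC animals, so the repeated call carries no weight as support.

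The summed fibroblast markers were also higher in all DAC animals, as given above. Of the 8, 4 (COL1A1, COL1A2, COL3A1 and LUM) were upregulated at an unadjusted P under 0.05, beside 3.25% of all genes tested. The list was chosen with earlier results of these data known, so this count carries no weight as support. The other 4, PDGFRA, TCF21, DCN and DPT, were not called, with differences of 0.24, -0.022, -0.012 and 0.080 (limma, adjusted P = 0.640, adjusted P = 0.981, adjusted P = 0.992 and adjusted P = 0.931). Most of the sum came from COL3A1 (mean 173 FPKM in sham and 238 in DAC), COL1A1 (94.0 and 165), COL1A2 (73.3 and 110) and DCN (150 and 156). The part of fibroblast content in the IL33 difference was not tested.

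In the deposited annotation the position of RANBP6, on the plus strand, covers the whole of IL33, and the library kit is not stated to keep strand. RANBP6 was at 2.42, 2.65 and 2.52 FPKM in the sham animals and at 1.73, 2.65 and 1.98 FPKM in the DAC animals. Its mean was thus not higher in the DAC group (difference -0.19 on the log2 scale, limma, adjusted P = 0.710). In the RefSeq annotation of Sscrofa11.1 the pair do not overlap.

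The receptor side of IL-33 was measured only in part. IL1RL1, which encodes ST2, was absent from the table under its symbol and under its identifier ENSSSCG00000032795, and no listed gene overlapped its RefSeq position (chromosome 3 from 51868549 to 51902454). Since the highest sample of every listed gene reached at least 0.5001 FPKM, no value can be given for IL1RL1. IL1RAP, the partner chain of ST2 and of other IL-1 family receptors, was at 1.40, 1.36 and 2.07 FPKM in the sham animals. In the DAC animals it was at 0.982, 1.23 and 1.16 FPKM, below all sham values, as were 8.91% of the genes tested. The difference of -0.29 did not pass the test (95% confidence interval -0.62 to 0.044, limma, adjusted P = 0.609).

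Behind the receptor, TRAF6, the ubiquitin ligase that passes the signal of IL-1 family receptors to NF-κB, was upregulated at an unadjusted P under 0.05. It was at 7.28, 6.90 and 6.89 FPKM in the sham animals and at 8.65, 9.99 and 11.998 FPKM in the DAC animals, a difference of 0.47 (standard error 0.13, limma, adjusted P = 0.5001). TRAF6 was also one of the 3 tested genes whose values over the 6 animals were most like those of IL33 (Pearson's r = 0.980 on the log2 scale), after LRRK2 (r = 0.984) and before ARSJ (r = 0.980), and 75 genes had an r above 0.9. These correlations include the difference between the groups.

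The list of the IL-33 receptor complex and its adaptors held 13 genes, IL1RAP and TRAF6 among them. Of these, 12 were tested, and 1 was called higher and 2 lower, beside 3.25% and 5.27% of all genes tested. The median difference of the 12 was -0.11, beside -0.016 over all genes tested. The genes called lower were TOLLIP, an inhibitor of IL-1 receptor signaling, and the kinase IRAK2. TOLLIP fell from 58.1 ± 11.0 FPKM (SD, n = 3) to 39.7 ± 6.34 FPKM (SD, n = 3), with an adjusted P of 0.522 (limma). IRAK2 fell from 3.47 ± 0.812 FPKM (SD, n = 3) to 2.25 ± 0.558 FPKM (SD, n = 3), with overlapping groups (limma, adjusted P = 0.584). IRAK2 lost its call when sham replicate 2 or 3 or DAC replicate 4 or 5 was omitted, and TOLLIP when sham replicate 1 or DAC replicate 5 was omitted. With the variance of each gene on its own both lost their calls, and IRAK2 also lost its call with sample weights. The other ligands and receptors of the IL-1 family were mostly unlisted (1 of 8 listed), IL1B among them, and IL1R1, the receptor of IL-1, was not called. The 4 tested proteases that process IL-33 or shed cytokine receptors had differences between -0.054 and 0.042, with none called.

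IL6 (ENSSSCG00000020970, chromosome 9 from 91506340 to 91511263, plus strand) was at 0.403 and 0.536 FPKM in sham replicates 1 and 2 and was listed at 0 in sham replicate 3. It was at 0.310 and 0.263 FPKM in DAC replicates 4 and 5 and was listed at 0 in DAC replicate 6. The groups overlapped, and IL6 did not reach the minimum of 1 FPKM in any animal, so it was tested only in the alternative without a filter (difference -0.13, limma, adjusted P = 0.873). Only 1.11% of the listed genes had a mean as low or lower. Whether a listed 0 means that the transcript was missing cannot be told from these values. MCL1, a survival gene used by most cells, was also listed at 0 in 3 of the 6 animals. The deposited position of MCL1 lies inside that of ENSA, which had a higher level. Whether the zeros of MCL1 are a guide to those of IL6 was not tested. The deposited position of IL6 lies inside that of RAPGEF5 on the other strand, which varied from 5.27 to 20.0 FPKM in the sham animals alone, but the RefSeq positions of the pair do not overlap.

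The other ligands of the IL-6 family were mostly absent or low. Of 8 looked for, 4 were listed, and LIF and IL11 were not among them. CTF1, which encodes cardiotrophin-1, was the ligand with the highest level, at 26.1, 29.2 and 16.0 FPKM in the sham animals and 28.4, 12.3 and 23.3 FPKM in the DAC animals. Its groups overlapped (difference -0.18, 95% confidence interval -0.96 to 0.60, limma, adjusted P = 0.891). OSM, which encodes oncostatin M, a cytokine of leukocytes, was at 0.705, 0.395 and 0.450 FPKM in sham and 0.0353, 0.125 and 0.245 FPKM in DAC. CLCF1, a ligand of the CNTF receptor that was singled out after its values were seen, was at 0.313, 0.544 and 0.116 FPKM in sham and 1.08, 1.64 and 0.763 FPKM in DAC. OSM was thus lower and CLCF1 higher in every DAC animal than in every sham animal. Both were below the filter and were tested only in the alternative without one. There the difference was 0.70 for CLCF1 (limma, adjusted P = 0.543) and -0.42 for OSM (limma, adjusted P = 0.572). OSM passed the 0.5001 FPKM that every listed gene reaches in some sample only through sham replicate 1. OSM shares part of its position with CASTOR1, which had a higher level.

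Among the receptors, IL6ST (ENSSSCG00000016916, chromosome 16 from 35101304 to 35211982, minus strand), which encodes the shared chain gp130, was at 15.3, 10.7 and 8.51 FPKM in the sham animals. It was at 18.7, 7.89 and 14.5 FPKM in the DAC animals. The highest and the lowest of the 6 values were both in the DAC group. The difference of 0.19 (95% confidence interval -0.56 to 0.94, limma, adjusted P = 0.883) did not pass the test, and it was -0.054 without DAC replicate 4.

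IL6R (ENSSSCG00000027628, chromosome 4 from 95322426 to 95381282, minus strand), which binds IL-6 and can be shed from the cell, was at 5.37, 5.59 and 3.41 FPKM in the sham animals and at 4.24, 8.26 and 4.16 FPKM in the DAC animals. DAC replicate 5 was the highest and the other DAC animals lay within the sham range. The difference was 0.14 (95% confidence interval -0.48 to 0.77, limma, adjusted P = 0.893), and without DAC replicate 5 it was -0.13. In DAC replicate 5 the level of IL6ST was 0.956 times that of IL6R, while in the other 5 animals it was between 1.91 and 4.41 times. That animal thus had the lowest IL6ST and the highest IL6R of the series.

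LIFR (ENSSSCG00000016850, chromosome 16 from 23631195 to 24042240, minus strand), the receptor chain for LIF and cardiotrophin-1, was at 6.81, 7.44 and 9.88 FPKM in the sham animals. It was at 10.8, 12.3 and 9.22 FPKM in the DAC animals. Sham replicate 3 lay above DAC replicate 6, so the groups overlapped by this pair. The means were 8.04 ± 1.62 FPKM (SD, n = 3) and 10.8 ± 1.55 FPKM (SD, n = 3), and LIFR rose by 0.39, just past the unadjusted threshold, on the log2 scale (standard error 0.16, 95% confidence interval 0.0019 to 0.77, limma, adjusted P = 0.586). The exact two-sided permutation test gave P = 0.2. The call was lost when sham replicate 1 (difference 0.29), sham replicate 2 (0.34), DAC replicate 4 (0.38) or DAC replicate 5 (0.29) was left out. The direction was the same in all of these. Over the 6 animals the tested genes most like LIFR were CNN1 (r = 0.986), a smooth muscle gene, ZMPSTE24 (r = 0.983) and ARHGAP30 (r = 0.977), and 63 genes had an r above 0.9.

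OSMR (ENSSSCG00000016851, chromosome 16 from 24041567 to 24102179, plus strand), a receptor chain for oncostatin M, lies head to head with LIFR and shares 674 bases with it. It was at 2.55, 3.05 and 3.18 FPKM in the sham animals and at 2.62, 3.15 and 3.02 FPKM in the DAC animals. The groups overlapped throughout, with a difference of 0.0016 (95% confidence interval -0.27 to 0.28, limma, adjusted P = 0.998). LIFR stood at 2.44 to 3.11 times the level of OSMR in the sham animals and at 3.06 to 4.10 times in the DAC animals, ranges that overlap. How fragments in the shared stretch were assigned was not given in the sources used here.

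Further receptors of the family were tested in 3 of 5 cases, and none was called. IL11RA, the receptor of IL-11, was the most abundant of them, at 19.7, 19.7 and 18.5 FPKM in sham and 18.6, 17.4 and 17.0 FPKM in DAC, with a difference of -0.12 (95% confidence interval -0.35 to 0.10, limma, adjusted P = 0.729).

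JAK1 (ENSSSCG00000003809, chromosome 6 from 147429106 to 147567179, plus strand) had the highest level of all members. It was at 31.9, 27.8 and 32.3 FPKM in the sham animals and at 25.6, 34.1 and 29.7 FPKM in the DAC animals. The DAC animals held both the lowest and the highest value. The difference was -0.046 (95% confidence interval -0.36 to 0.27, limma, adjusted P = 0.939).

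STAT3 (ENSSSCG00000017403, chromosome 12 from 20407233 to 20472993, plus strand) was at 13.6, 12.6 and 13.9 FPKM in the sham animals and at 13.4, 13.7 and 13.5 FPKM in the DAC animals. All DAC values lay within the sham range. The difference was 0.016 (95% confidence interval -0.21 to 0.24, limma, adjusted P = 0.972), an interval that leaves out changes beyond about 0.24 on the log2 scale in either direction. Its coefficient of variation over the 6 animals was 3.55%, and only 0.490% of the tested genes had one as low or lower.

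The other Janus kinases and STAT factors gave 1 call among 7 tested genes, beside calls in 8.51% of all genes tested. STAT2, which acts downstream of interferons, fell with overlapping groups, from 2.54, 5.31 and 2.71 FPKM to 2.56, 1.69 and 1.27 FPKM (difference -0.64, limma, adjusted P = 0.584). The call of STAT2 was lost on leaving out sham replicate 2 (-0.38), DAC replicate 5 (-0.62) or DAC replicate 6 (-0.49). The call was also lost when mitochondrial genes were dropped and with the variance of each gene on its own. The position of STAT2 overlaps that of PAN2, which had a higher level. JAK2, the second kinase that gp130 can use, was at 1.30, 1.46 and 1.29 FPKM in sham and at 1.98, 2.10 and 1.54 FPKM in DAC. Its groups did not overlap, as in 6.01% of the genes tested with DAC higher. It fell just short of the unadjusted threshold (limma, adjusted P = 0.592, difference 0.29, 95% confidence interval -0.0015 to 0.57). JAK2 passed that threshold in 4 of 14 alternatives (limma, adjusted P from 0.503 to 0.902 over the 14).

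SOCS3 (ENSSSCG00000036956, chromosome 12 from 3643929 to 3647012, plus strand), the feedback inhibitor of gp130, was at 3.78, 4.45 and 4.35 FPKM in the sham animals. In DAC replicates 4, 5 and 6 it was at 11.2, 3.28 and 6.17 FPKM. DAC replicates 4 and 6 lay above all sham animals, and DAC replicate 5 lay below them. The group means of 4.20 ± 0.360 FPKM (SD, n = 3) and 6.89 ± 4.02 FPKM (SD, n = 3) differed by 0.48 on the log2 scale (95% confidence interval -0.33 to 1.28, limma, adjusted P = 0.711), which did not pass the test. The spread of SOCS3 within the groups was at the 96.0th percentile of the genes tested.

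The SOCS3 difference rested on single animals. It was 0.85 without DAC replicate 5 (limma, adjusted P = 0.494) and 0.094 without DAC replicate 4 (limma, adjusted P = 0.939). DAC replicate 4 also had the highest IL6ST, and DAC replicate 5 the lowest. DAC replicate 5 was in addition the animal with the largest share of mitochondrially encoded transcripts, whose part in these values was not tested. The deposited position of TK1 covers SOCS3 on the same strand, where TK1 was at 0.206 to 0.955 FPKM over the 6 animals, and in RefSeq the pair do not overlap.

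**Figure D2:**
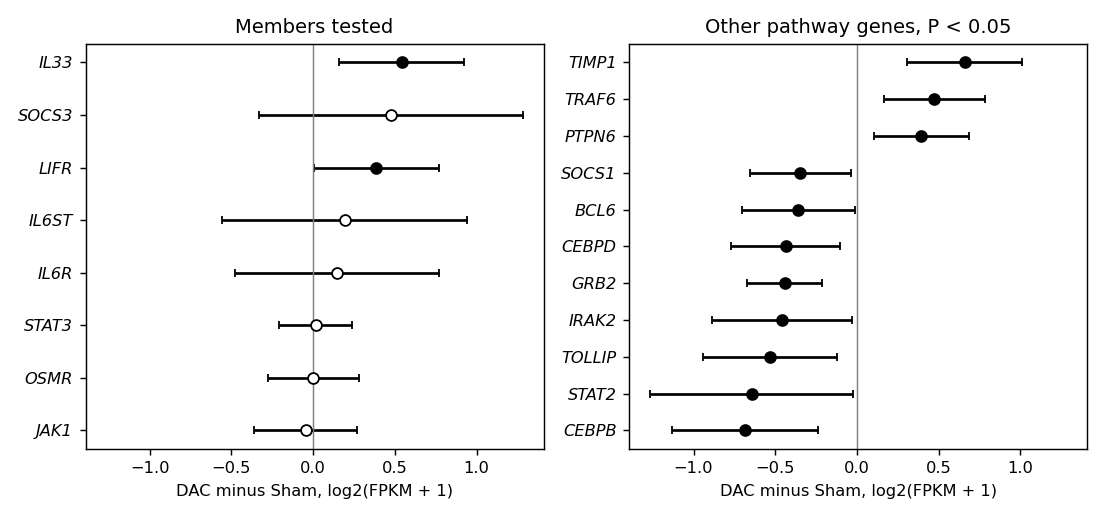
Difference between the DAC and sham groups in mean log2(FPKM + 1) with its 95% confidence interval from limma (horizontal axes), for the 8 members tested (left) and for the 11 other pathway genes with an unadjusted P under 0.05 (right), where filled points mark an unadjusted P under 0.05. IL33 and LIFR are the members whose intervals leave out 0, SOCS3 has the widest interval of the members (-0.33 to 1.28), and 8 of the 11 other genes lie below 0.

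Among the other inhibitors of the pathway, 13 were tested, of which 1 was called higher and 1 lower, beside 3.25% and 5.27% of all genes tested. Their median difference was -0.054. PTPN6, a phosphatase of leukocytes that acts on JAK kinases, was at 2.44, 2.66 and 3.10 FPKM in the sham animals and at 3.38, 4.16 and 4.17 FPKM in the DAC animals. Its groups did not overlap, as in 6.01% of the genes tested with DAC higher. PTPN6 rose by 0.39 (limma, adjusted P = 0.522), or by 0.34 without sham replicate 1, when it was no longer called (limma, adjusted P = 0.896). The leukocyte marker sums of the groups overlapped, as given above. The positions of ATN1 and C12orf57 overlap PTPN6, and both had higher levels.

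SOCS1, an inhibitor that is related to SOCS3 and acts mainly on interferon receptors, moved the other way. It was at 1.91, 2.38 and 1.59 FPKM in the sham animals and at 1.22, 1.37 and 1.34 FPKM in the DAC animals, and it fell by 0.35 (limma, adjusted P = 0.564). SOCS1 lost its call when any one of 5 animals was left out, sham replicate 3 being the exception, with differences from -0.44 to -0.25 over the 6 omissions.

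In the branch from gp130 to ERK, 1 of 5 tested genes was called, beside 8.51% of all genes tested. GRB2, the adaptor that links receptors to RAS, was at 22.5, 21.2 and 23.6 FPKM in the sham animals and at 16.8, 15.8 and 16.0 FPKM in the DAC animals. The groups lay well apart, and GRB2 fell by 0.44 (standard error 0.097, 95% confidence interval -0.67 to -0.22, limma, adjusted P = 0.419), keeping its call under every alternative.

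Of the 15 tested genes listed as known STAT3 targets, 1 was called higher and 3 lower, beside 3.25% and 5.27% of all genes tested. Their median difference was -0.12. The list was chosen with earlier results of these data known, so these counts carry no weight as support. The genes called lower were CEBPB and CEBPD, transcription factors of the acute phase response, and BCL6, a transcriptional repressor. CEBPB was at 91.9, 86.7 and 77.9 FPKM in the sham animals and at 68.8, 40.8 and 52.3 FPKM in the DAC animals (difference -0.68, standard error 0.19, limma, adjusted P = 0.5001). CEBPD was at 22.5, 25.0 and 27.4 FPKM in sham and at 17.5, 21.5 and 15.8 FPKM in DAC (difference -0.44, limma, adjusted P = 0.522). BCL6 was at 18.9, 15.2 and 16.4 FPKM in sham and at 15.004, 13.1 and 10.8 FPKM in DAC (difference -0.36, limma, adjusted P = 0.584). In all 3 genes every DAC animal lay below every sham animal, which was so for 3 of the 15 targets and 8.91% of all genes tested. The 3 genes were named for their calls in these same animals, so their separation carries no weight as support.

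TIMP1, an inhibitor of matrix metalloproteinases, was the target called higher, at 9.31, 8.58 and 7.22 FPKM in the sham animals and at 11.8, 16.3 and 13.4 FPKM in the DAC animals. It rose by 0.66 (standard error 0.15, limma, adjusted P = 0.441). TIMP1 was also among the fibrosis genes that the study picked from these libraries. Its position lies wholly inside that of SYN1, which had a higher level (mean 40.5 FPKM, against 11.1 for TIMP1). How fragments in the shared stretch were assigned was not given. CEBPB and TIMP1 kept their calls under every alternative. CEBPD lost its call without sham replicate 3 (difference -0.37) or DAC replicate 6 (-0.35). BCL6 kept its call when sham replicate 2 or DAC replicate 4 was left out and lost it with each of the other animals left out, with differences from -0.46 to -0.24 over the 6 omissions. BCL6 also lost its call under each of the 3 scalings and with the variance of each gene on its own. Within the DAC group CEBPB ran in the same order as SOCS3, highest in replicate 4 and lowest in replicate 5, but all its DAC values lay below the sham values, and TIMP1 was lowest in replicate 4.

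**Figure D3:**
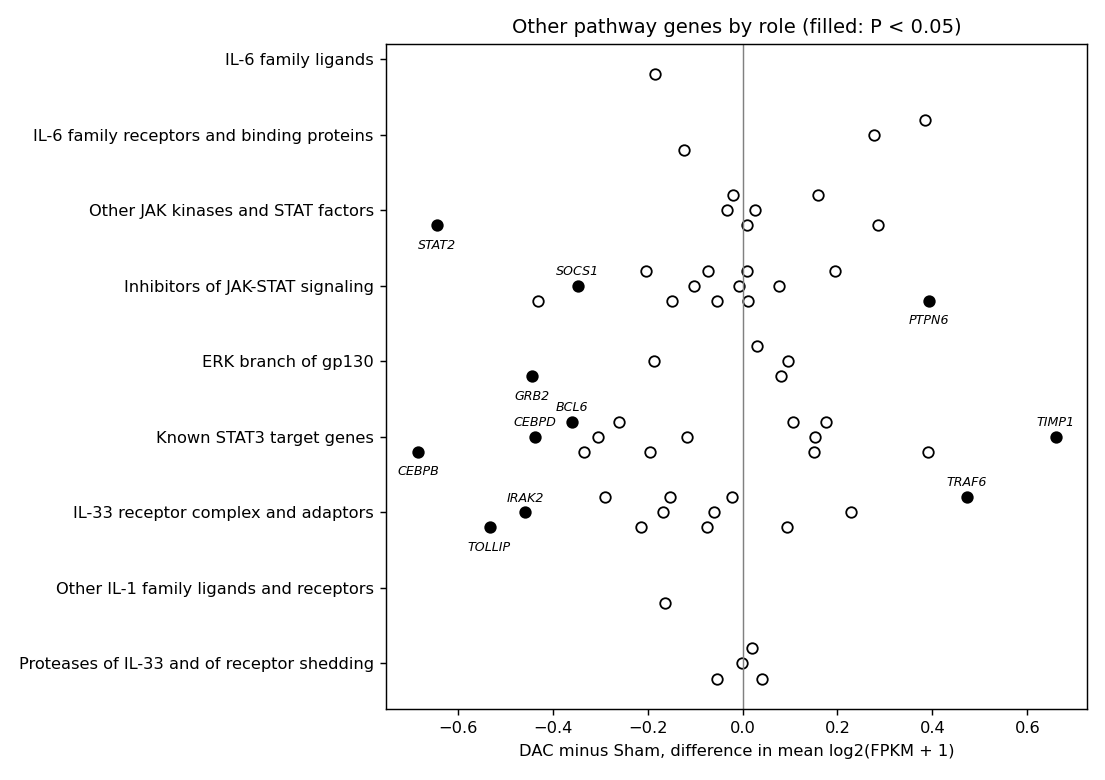
Difference between the DAC and sham groups in mean log2(FPKM + 1) (horizontal axis) for the tested genes of the 9 other lists of the pathways, one point per gene, grouped by role, with filled and named points at an unadjusted P under 0.05. MCL1, listed at 0 in 3 animals, is not drawn, and the named points are 8 genes below 0, with CEBPB lowest at -0.68, and TRAF6, PTPN6 and TIMP1 above 0.

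Taking the 9 lists as one, 68 of 83 genes were listed and 61 tested, of which 3 were called higher and 8 lower. The share called was 18.0%, beside 8.51% of all genes tested, and the median difference was -0.033. The lists were chosen with earlier results of these data known, so the larger share carries no weight as support. The direction of the calls was not stable, with 6 higher and 4 lower when each gene kept its own variance, 5 higher and 3 lower on omitting DAC replicate 5, 5 higher and 4 lower on omitting DAC replicate 6, and 4 higher and 6 lower when mitochondrial genes were dropped. Omitting sham replicate 1 left 7 of these genes called, or 11.5%, while the share over all genes tested came down to 5.44%. Of the 11 called genes, 3 overlap another listed gene in position.

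In order of level, JAK1 stood first with a mean of 30.2 FPKM over the 6 animals, above STAT3 (13.5 FPKM) in every animal. STAT3 and IL6ST (12.6 FPKM) could not be ordered, since each was the higher in 3 animals, and LIFR (9.40 FPKM) was below IL6ST in 4 of 6. SOCS3 (5.54 FPKM) and IL6R (5.17 FPKM) could not be ordered either. OSMR (2.93 FPKM), IL33 (1.24 FPKM) and IL6 followed, each below the one before in all 6 animals and with no overlap of ranges. JAK1 stood at the 90.9th percentile of the listed genes by mean FPKM, IL6ST at the 77.4th and IL33 at the 20.8th.

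**Figure D4:**
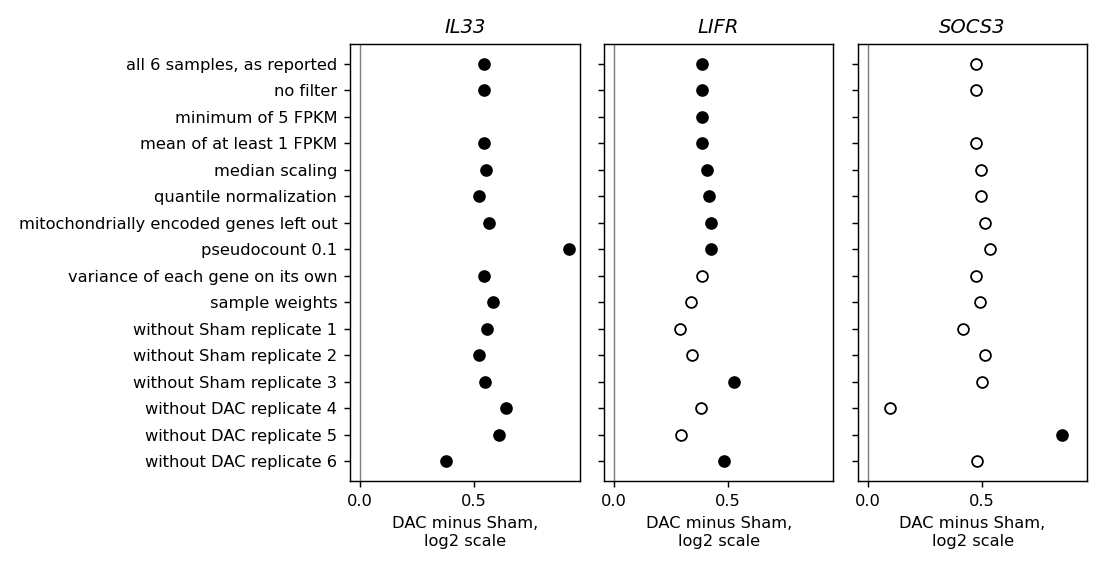
Difference between the DAC and sham groups on the log2 scale (horizontal axes) for IL33, LIFR and SOCS3 under each way of processing (one line each), with filled points at an unadjusted P under 0.05. IL33 is filled wherever it was tested (0.37 to 0.92), LIFR is open in 6 of 15 alternatives, and SOCS3 is filled only without DAC replicate 5, at 0.85.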

How the data were processed

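The authors deposited one table of FPKM with a column for each minipig. HISAT2 and build susScr11 are named in the submitters' processing notes, and the program that made the FPKM was not given in the sources used here. Missing symbols were filled by gene identifier. The filter kept genes that reached 1 FPKM in 3 or more of the 6 samples, and these were compared with limma 3.58.1 (R 4.3.3), using its moderated test with a variance trend on log2(FPKM + 1) and Benjamini-Hochberg adjustment over 11029 genes. A call is an unadjusted P under 0.05, as in the study. The fit was tested on simulated data.

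The members, the 9 pathway lists and the 11 marker lists were chosen with earlier results of these data known. Named are all members, pathway genes with an unadjusted P under 0.05, IL1RAP, IL11RA, JAK2, IL11, LIF, OSM and IL1B, and for the 2 members with the smallest P the 3 genes most alike by Pearson's r. One gene that the rule names is not reported here. Other genes were named after their values were seen. No sequencing batch is named in the labels. The limma P-values set the difference between the groups against the spread between minipigs, which the moderated test draws toward a trend over all genes tested. Alternatives were 2 other filters, a filter on the mean added after seeing the data, 3 scalings, a pseudocount of 0.1, unmoderated variances, sample weights and each animal left out.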

Additional observations from a re-analysis of the deposited data

How the results depend on the processing

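Over 15 alternatives, IL33 kept its direction and its call in the 14 that tested it (adjusted P from 0.467 to 0.884), and LIFR kept its direction in 15 and its call in 9 (adjusted P from 0.510 to 0.910). The alternatives reuse the same animals, and IL33 passed the filter only through the DAC animals, so its repeated call is not independent support. A minimum of 5 FPKM left 579 genes called of 6271 tested, 1 of 5 members (LIFR, since IL33 was not tested) and 7 of 40 pathway genes, because fewer genes were tested. The number of members called was 1 with the variance of each gene on its own and 1 with sample weights, both times IL33. With 1 animal left out in turn, the number of genes called was from 600 to 1029, of members from 1 to 2 and of pathway genes from 7 to 11, and the number over all genes was lowest without sham replicate 1. With 1 animal left out, the difference changed sign for IL6R (-0.13 to 0.29), IL6ST (-0.054 to 0.52), JAK1 (-0.15 to 0.055), OSMR (-0.069 to 0.059) and STAT3 (-0.026 to 0.044). The share of lower genes among all genes called was 61.9%, against 44.9% when the mitochondrial genes were dropped, 52.9% with quantiles made equal and 52.8% with medians made equal. The cause was not tested. No paired analysis was made, because the animals were assigned to the groups at random and no pairing is stated. Depth is unknown, and IL6, OSM and CLCF1 lie near the lower end of the table.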
